A study of Mus musculus with 12 samples.

Results

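The proteins of the Myc and Max network were followed through 10 genes in mouse heart RNA, namely Myc, Mycn, Max, Mxd1, Mxd3, Mxd4, Mxi1, Mnt, Mlx and Mlxip. The genes were chosen by symbol from the 24062 gene symbols of the count table, and all 10 were found and were tested in every comparison. The study asked what happens in the heart when LEMD2, a protein of the inner nuclear membrane, is mutated or deleted. Whole-heart polyA RNA was sequenced from 12 mice in 4 groups of 3. Adult WT mice and adult KI/KI mice were 2 months old, and the KI/KI mice carried the c.T38>G change on both copies of Lemd2 in every cell. Floxed and cKO mice were taken at P1 (postnatal day 1). Both P1 groups carried loxP sites around the first exon of Lemd2, and the cKO mice also carried a Myh6-Cre transgene, which deletes that exon in cardiomyocytes only, so Lemd2 in the other cells of the heart was left in place. The floxed controls had no Cre, and no group carried Cre without loxP sites. The effects of the Cre transgene and of the deletion cannot be told apart. Adult WT and P1 floxed hearts therefore differed in age and in the Lemd2 allele, and the effects of these differences cannot be told apart.

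MYC and MYCN are transcription factors that bind E-box DNA only when paired with MAX, and they drive ribosome production, metabolism and cell growth. The MXD proteins, MXI1 and MNT compete for MAX and recruit SIN3 and histone deacetylase complexes to the same E-boxes, which represses those genes. MLX pairs with some of these repressors and with the glucose-sensing MondoA protein, which is encoded by Mlxip. In rodent heart, MYC is high during fetal growth and low in the resting adult, and it returns under stress.

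The central letters of the E-box, CACGTG, read the same on both strands, and they were searched in the RefSeq promoters of the network genes, 250 bases before to 50 bases after each start site in GRCm38.p6. A promoter was given for 9 of the 10 genes, and the 6 letters were present in those of Max, Mxd4, Mnt and Mlx. Of 27025 genes with a promoter, 8.09% held them. These 4 stretches are shown because they are the sites in the network's own promoters that match the network's own DNA motif, in capitals. The Max E-box began 3 bases before the start site, that of Mlx 40, that of Mnt 123 and that of Mxd4 219. The sequences run 5′ to 3′ on the strand of the gene.
Max, chr12:76962234-76962263, minus strand: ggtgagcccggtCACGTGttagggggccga
Mlx, chr11:101087225-101087280, plus strand: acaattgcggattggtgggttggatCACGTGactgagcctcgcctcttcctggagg
Mnt, chr11:74830776-74830831, plus strand: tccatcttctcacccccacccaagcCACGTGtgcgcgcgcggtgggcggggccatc
Mxd4, chr5:34187899-34187954, minus strand: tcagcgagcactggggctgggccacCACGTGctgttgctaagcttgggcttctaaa

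A second motif was looked up after the sequences had been seen. The letters TTTGGCGC or TTTCGCGC, which E2F factors of the cell cycle bind, were found on either strand only in the promoter of Mycn among the 9, and in 0.929% of all genes with a promoter. There were 3 matches, of which the pair on opposite strands overlapped, the first beginning 183 bases before the start site. This stretch is shown because the level of Mycn is set beside cell cycle genes further on, with the matched letters in capitals. Whether E2F factors act on Mycn in these hearts was not tested.
Mycn, chr12:12941972-12942044, minus strand: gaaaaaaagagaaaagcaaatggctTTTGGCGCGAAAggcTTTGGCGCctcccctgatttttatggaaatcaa

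Library totals lay between 37063669 and 44789753 counts, and 3 counts, taken as the limit of detection, correspond to between 0.067 and 0.0809 counts per 1000000 counts of the library (CPM), which covers counting error only. CPM values were scaled by the TMM method over all 12 hearts. Lemd2, the targeted gene, had 31.9, 34.7 and 33.0 CPM in the WT mice, and 25.6, 25.1 and 24.8 in the KI/KI mice. At P1 its level was 24.4, 25.1 and 25.3 CPM with the floxed alleles alone and 6.64, 13.1 and 11.3 CPM with Cre, so it was lower in every cKO heart. The summed cardiomyocyte markers (6 of 6 genes detected) ranged from 29679 to 74839 CPM, which fits the tissue named by the labels. Some hearts stood apart. The cKO heart of replicate 4 had 0.0804 CPM of 4 Y-linked genes, against 222 to 375 CPM in the 11 others. The sum of 4 lung epithelium markers was 96.0 CPM in WT replicate 3, 34.2 in KI/KI replicate 4, 40.1 in floxed replicate 2, 26.2 in floxed replicate 1 and 16.7 in cKO replicate 4. Elsewhere it was 0.0641 to 3.05 CPM. In each of these 5 hearts most of the sum came from 1 gene, Scgb1a1. In WT replicate 3 it had 3505 counts, beside 0 for Sftpc, 5 for Sftpb and 9 for Nkx2-1.

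To compare the genes with each other, levels were divided by the length of each gene's exons and are given as CPM per kilobase (mean ± SD, n = 3 hearts). In WT hearts the common partner Max led with 16.1 ± 2.01 CPM per kilobase, followed by Mlxip with 15.1 ± 1.67, and the ranges of these neighbours overlapped. Mlx stood at 10.7 ± 0.622, and Mxi1, a MAX-binding repressor, at 8.58 ± 1.19. Mnt, which is found in resting and growing cells alike, and Mxd4 followed with 5.32 ± 1.15 and 4.02 ± 0.697, ranges that overlapped. Mxd1 (2.09 ± 0.102), Mycn (1.93 ± 0.636) and Myc (1.38 ± 0.460) were close to each other, each overlapping its neighbour, and Mxd3 was lowest with 0.188 ± 0.0620. By this length the partners Max, Mlxip and Mlx and the repressor Mxi1 were thus the abundant transcripts of the adult heart. Both activators and the repressors Mxd1 and Mxd3 were the scarce ones. The order depends on the length used. Exons cover 3598 bases for Max, 8326 for Mlxip and 8483 for Mxd4, and their coding parts 480, 2751 and 627.

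The place of Myc in this order differed between the groups, and it too depends on the length used (2717 bases of exons, 1362 coding bases). Per kilobase, Myc ranked 9 of 10 in WT hearts, 7 in KI/KI hearts (2.35 ± 0.723 CPM per kilobase), 5 in floxed hearts (5.42 ± 0.293) and 2 in cKO hearts (11.2 ± 1.46). In cKO hearts its range overlapped that of Max (11.2 ± 0.345) and lay above that of Mlx (9.03 ± 0.235). Max kept rank 1 in all 4 groups, with 15 ± 2.21 CPM per kilobase in KI/KI hearts and 10.4 ± 0.572 in floxed hearts. Mxd3 was last in WT, KI/KI and floxed hearts, and Mxd1 was last in cKO hearts, where the ranges of both overlapped.

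**Figure D1:**
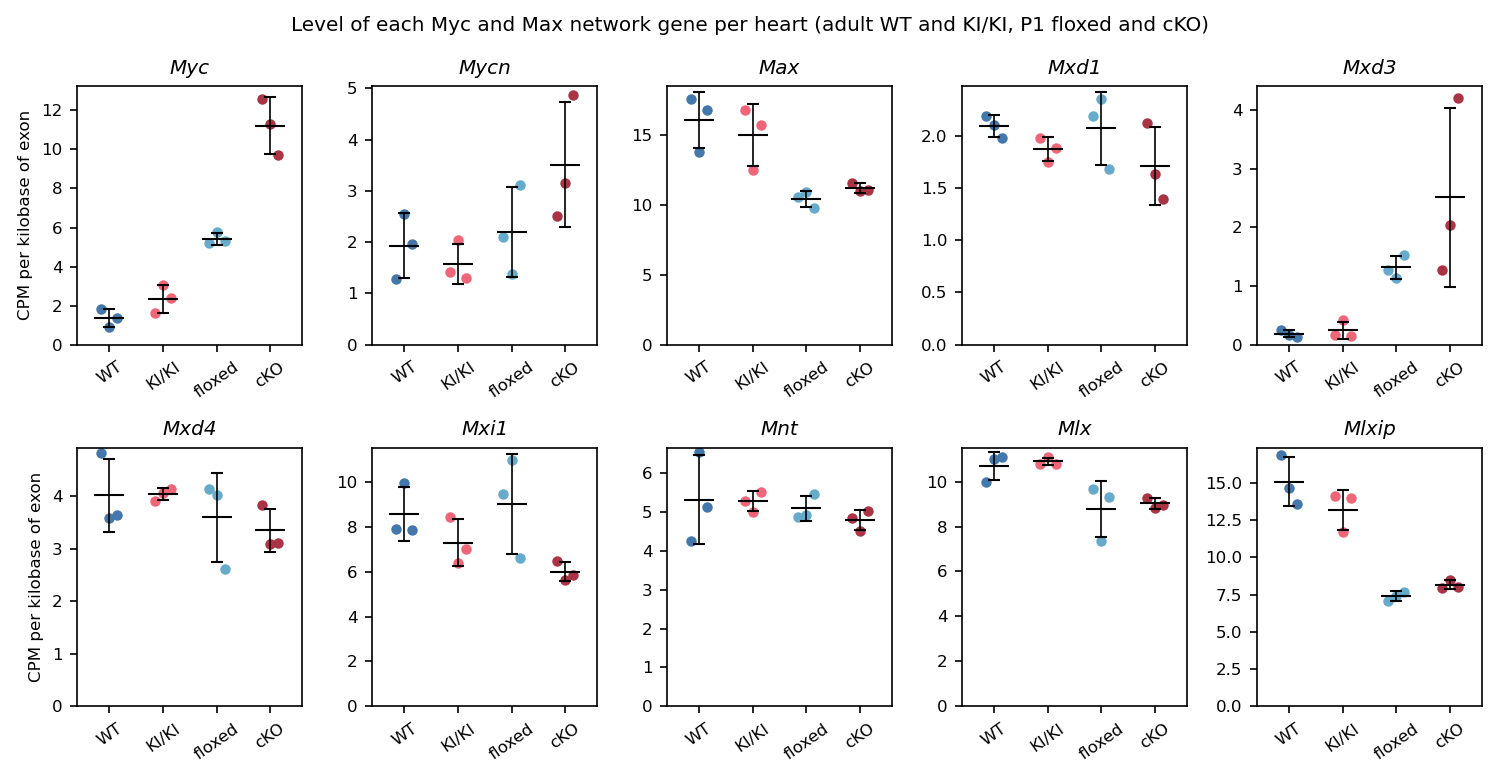
Level of each of the 10 network genes in CPM per kilobase of exon (vertical axes start at 0), with 1 point per heart for adult WT, adult KI/KI, P1 floxed and P1 cKO hearts, a bar at the mean and whiskers of 1 SD (n = 3). Myc runs from 0.920 to 1.84 in WT hearts up to 9.73 to 12.6 in cKO hearts, whereas Mnt lies between 4.27 and 6.55 in all 12.

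The first comparison asks whether the network differed between cKO hearts, with Cre and Lemd2 deleted in cardiomyocytes, and floxed hearts without Cre. Myc was 2.07-fold higher in cKO than in floxed hearts at P1, and it was the only one of the 10 genes to pass an adjusted p of 0.05. Its activator relative Mycn and the cell cycle-linked repressor Mxd3 had large estimates that did not pass, and Mxi1 had the largest decrease, which passed with one tool of 3.

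Myc lies on chromosome 15 of GRCm38 from 61985391 to 61990374, on the plus strand. It was at 14.1, 15.6 and 14.4 CPM in the floxed hearts (623 to 716 counts) and at 34.3, 30.7 and 26.4 CPM in the cKO hearts (1094 to 1708 counts). The lowest cKO heart lay well above the highest floxed heart. On the log2 scale the difference was 1.05 with a standard error (SE) of 0.13, and the adjusted p was 0.00688 in edgeR's quasi-likelihood test, 7.8e-11 from DESeq2 and 0.00796 from limma-voom. Fits without 1 of the hearts gave 0.95 to 1.14, and 5 of these 6 passed, and without floxed replicate 1 the adjusted p was 0.0525. Without cKO replicate 4, the heart that lacked Y-linked RNA, the log2 fold change was 0.95 (adjusted p = 0.0148).

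Across all genes tested at P1, edgeR called 16.5% of 15317, with 9.15% higher and 7.31% lower in cKO hearts, and 4.48% also had a fold change above 2. Of the 10 network genes Myc alone passed, with a fold change above 2. DESeq2 called 23.8% of genes and 2 of the 10, Myc and Mxi1. The cKO and floxed ranges did not overlap for 39.8% of all genes and for 3 of the 10, Myc, Max and Mlxip, so that count is near that of the table as a whole. In bulk RNA, fewer cells of a type and less RNA per cell cannot be told apart, and this holds for every comparison below. The summed cardiomyocyte markers were at 37055 to 41075 CPM in floxed and 29679 to 32755 in cKO hearts, and the 4 fibroblast markers at 1397 to 1509 and 1665 to 2080. By edgeR 2 of 6 cardiomyocyte markers passed as lower (list median log2 fold change -0.35) and 2 of 4 fibroblast markers as higher (0.21). Not every marker moved with its sum. Actn2 had 80334 to 116486 counts in floxed and 112439 to 134132 in cKO hearts, and Dcn had 13138 to 13389 and 9979 to 13950. The 3 macrophage markers analysed here were at 30.0 to 34.2 CPM in the floxed and 40.5 to 53.7 in the cKO group, with a median log2 fold change of 0.90 and 1 of 3 passing. None of these 3 sums overlapped between the groups, and nor did that of the proliferation markers given further on. Their part in the Myc result was not tested.

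Mycn, on the minus strand of chromosome 12 from 12936093 to 12941914, was at 6.89, 4.52 and 10.3 CPM in floxed and at 8.29, 10.4 and 16.0 CPM in cKO hearts. Its groups overlapped, and the log2 fold change of 0.67 (SE 0.34) had an adjusted p of 0.212. Mxd3, a repressor that is expressed in cells in S phase, measured 3.04, 2.71 and 3.63 CPM in floxed hearts against 3.04, 4.84 and 9.96 CPM in cKO hearts, with a log2 fold change of 0.92 (SE 0.41, adjusted p = 0.163). Here 1 cKO heart lay within the floxed range and another far above the rest. Without that heart, replicate 6, the log2 fold change of Mxd3 was 0.33 and that of Mycn 0.37.

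The cKO heart with most Mycn and Mxd3 also had most RNA of 6 proliferation markers (Mki67, Top2a, Ccnb1, Cdk1, Pcna and Mcm2). Summed, they reached 1158 CPM in cKO replicate 6, against 472 and 588 in the other cKO hearts and 325 to 462 in floxed hearts. With the mean log2 level of these markers as a covariate, the log2 fold change between cKO and floxed hearts was -0.14 for Mycn and -0.35 for Mxd3. That of Myc was 1.31 with this covariate and passed (adjusted p = 0.00351). No floxed heart reached the summed marker level of a cKO heart, although floxed replicate 3 (462 CPM) came close to cKO replicate 4 (472 CPM). Apart from this pair, these covariate fits compare no hearts at near-equal summed level. The covariate weighs the 6 markers equally, unlike the summed CPM, and its own values per heart are not given. By edgeR 2 of the 6 markers passed as higher and 0 as lower (median log2 fold change 1.01), and Top2a overlapped between the groups. Myc itself was lowest in the cKO heart with the most proliferation markers and highest in the one with the fewest. Whether proliferating cells account for the Mycn and Mxd3 values was not tested.

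**Figure D2:**
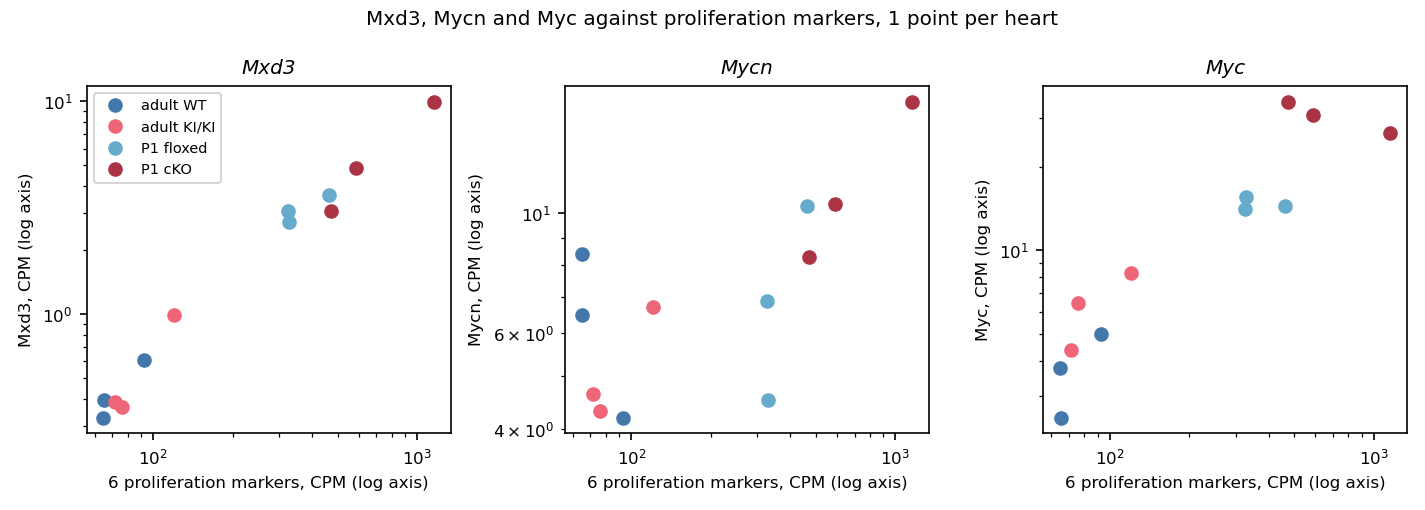
Mxd3, Mycn and Myc (vertical axes, CPM, log scale) against the summed CPM of 6 proliferation markers (horizontal axes, log scale), with 1 point per heart, coloured by group. Mxd3 and the markers are highest together in 1 cKO heart (9.96 and 1158 CPM), and the 3 cKO hearts (26.4 to 34.3 CPM) lie above the floxed hearts in Myc. The marker ranges of cKO (472 to 1158 CPM) and floxed hearts (325 to 462 CPM) do not overlap.

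None of the MAX-binding repressors passed with edgeR at P1. Mxi1, on the plus strand of chromosome 19 from 53310518 to 53375810, measured 64.7, 75 and 45.1 CPM in floxed hearts against 44.3, 38.6 and 40.0 CPM in cKO hearts. Floxed replicate 3 lay next to the highest cKO heart, with the order of these neighbours reversed when only the 6 P1 hearts were scaled together, and the other floxed hearts were far higher. The estimate was -0.59 on the log2 scale (SE 0.18), and the adjusted p was 0.0713 from edgeR, 0.0175 from DESeq2 and 0.0938 from limma-voom. Without floxed replicate 3 it was -0.77 and passed with edgeR (adjusted p = 0.0206). Mxd1 (log2 fold change -0.27, adjusted p = 0.380), Mxd4 (-0.10, adjusted p = 0.741) and Mnt (-0.09, adjusted p = 0.514) had smaller estimates. Mnt, at 22.6, 22.8 and 25.3 CPM in floxed and 22.4, 20.9 and 23.2 CPM in cKO hearts, had overlapping groups with little spread.

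The partner genes had estimates near 0 at P1. Max was at 38.0, 39.2 and 35.2 CPM in floxed and 41.9, 39.7 and 39.8 CPM in cKO hearts, which did not overlap but differed by a log2 fold change of only 0.11 (SE 0.08, adjusted p = 0.378). Mlxip likewise did not overlap, with a log2 fold change of 0.14 (SE 0.07, adjusted p = 0.197). Mlx had a log2 fold change of 0.04 (adjusted p = 0.851), which changed sign with upper-quartile and total-count scaling. A p above the threshold does not show that the levels were equal.

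Activators and repressors were also summed, on the scale per kilobase. Myc plus Mycn summed to 7.61 ± 0.712 CPM per kilobase in floxed and 14.7 ± 0.375 in cKO hearts, while Mxd1, Mxd3, Mxd4, Mxi1 and Mnt summed to 21.1 ± 2.87 and 18.4 ± 1.33. The ratio of the first sum to the second was 0.332, 0.304 and 0.471 in floxed hearts against 0.817, 0.853 and 0.746 in cKO hearts, so the groups did not overlap. With 3 hearts a group the smallest p an exact two-sided permutation test allows is 0.1, and none is given. In the adult the ratio was 0.160, 0.155 and 0.179 in WT hearts and 0.152, 0.288 and 0.197 in KI/KI hearts, which overlapped. The ratio is of transcripts per length and depends on the length used. Mycn made up 57.7 ± 16.3% of the activator sum in WT hearts, 40.7 ± 5.59% in KI/KI, 28.3 ± 8.87% in floxed and 23.9 ± 8.56% in cKO hearts.

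**Figure D3:**
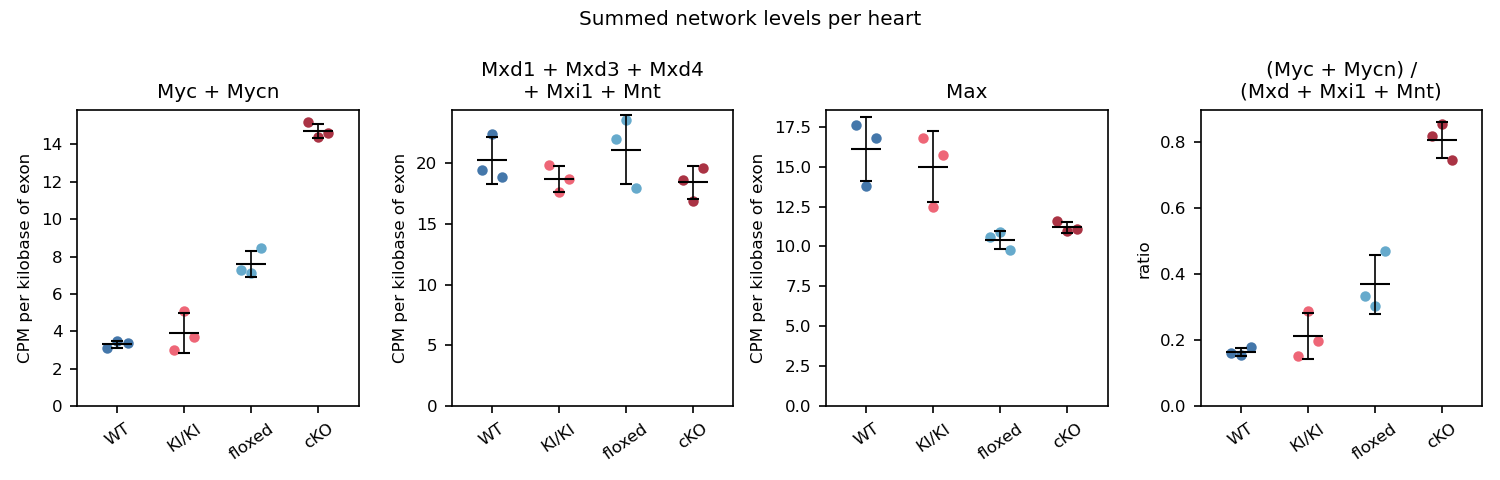
Summed level of the activators Myc and Mycn, of the repressors Mxd1, Mxd3, Mxd4, Mxi1 and Mnt, of Max, and the ratio of activators to repressors, per heart (points), with the group mean and 1 SD (n = 3, CPM per kilobase of exon, axes start at 0). The ratio lies at 0.746 to 0.853 in cKO hearts and at 0.304 to 0.471 in floxed hearts, and the adult groups overlap, at 0.155 to 0.179 and 0.152 to 0.288.

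The genes that act on MYC protein or lie downstream of the network were grouped in lists written from general knowledge, with earlier results of these data known. Of 43 genes that MYC is known to activate for growth (nucleolar proteins, translation factors and metabolic enzymes), 11 rose (25.6%, beside 9.15% of all genes) and 0 fell in cKO hearts by edgeR. DESeq2 called 18 higher and 0 lower, beside 2067 higher and 1670 lower of 15677 genes. The median log2 fold change of the list was 0.28, with 36 of 43 above 0, against 0.00 over all genes tested. Those that rose included Srm, which makes spermidine, from 11.2, 12 and 15.4 CPM to 21.3, 28.0 and 22.5 CPM (log2 fold change 0.89, SE 0.16, adjusted p = 0.0159), and the nucleolar GTPase Gnl3, from 25.4, 26.6 and 35.8 CPM to 60.6, 51.7 and 49.0 CPM (0.88, SE 0.16, adjusted p = 0.0162). Neither gene overlapped between groups. The 11 ranged in log2 fold change from 0.31 to 1.21. The count was 0 without cKO replicate 5, without floxed replicate 1 or without floxed replicate 2, and 7 without cKO replicate 4, while the median lay between 0.18 and 0.33 in the 6 fits that left out 1 heart. With the proliferation covariate 5 rose and 1 fell, the prohibitin gene Phb2, and the median was 0.16 with 26 of 43 above 0. With the Y-linked covariate 6 rose. Of the fits that left out 1 heart, 3 of 6 kept the Srm call and 3 of 6 the Gnl3 call.

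Of 8 genes that MYC is known to repress, 1 fell and 1 rose by edgeR, or 12.5% in each direction, beside 7.31% and 9.15% of all genes. DESeq2 called 3 lower (Ndrg2, Gadd45a and Gas1) and 1 higher (Cdkn1a), beside 1670 lower and 2067 higher of 15677 genes. The median log2 fold change of the list was -0.25, with 2 of 8 above 0, against 0.00 over all genes tested. Ndrg2, a growth-restraining protein, fell (log2 fold change -0.49, adjusted p = 0.0129, kept in 3 of the 6 fits that left out 1 heart), and Cdkn1a, which encodes the cell cycle inhibitor p21, rose. Cdkn1a was at 18.3, 21.9 and 18.6 CPM in floxed and at 69.9, 64.7 and 60.9 CPM in cKO hearts (log2 fold change 1.73, SE 0.11, adjusted p = 0.00494), the reverse of the direction in the list's name. Cdkn1a is also a textbook p53 target.

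Of 13 tested genes for MYC protein turnover, 1 rose and 1 fell, or 7.69% in each direction, which is near the 9.15% and 7.31% of all genes. Fbxw7, the F-box subunit that marks MYC for degradation, measured 57.3, 56.8 and 57.9 CPM in floxed hearts against 33.1, 31.2 and 38.8 CPM in cKO hearts (log2 fold change -0.74, SE 0.09, adjusted p = 0.00746). The floxed hearts were nearly identical, and every cKO heart lay below them. Pim1, a kinase that stabilises MYC, rose (log2 fold change 0.58, SE 0.11, adjusted p = 0.0188). Of the fits that left out 1 heart, 5 of 6 kept the Fbxw7 call (adjusted p = 0.0525 without floxed replicate 1) and 3 of 6 the Pim1 call.

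No gene rose or fell by edgeR among 14 MYC cofactors, 10 MXD and MNT corepressors or the other network genes Mycl, Mga and Mlxipl at P1, and DESeq2 called none of them either. Of 10 tested genes that MondoA and its relative ChREBP control with MLX, 0 rose and 3 fell by edgeR (30.0%, beside 7.31% of all genes). Those that fell were Acacb (log2 fold change -0.65, adjusted p = 0.0243), Fasn (-0.57, adjusted p = 0.0372) and Khk (-0.87, adjusted p = 0.0472), enzymes of fatty acid and fructose metabolism, and the list's median was -0.54. The Fasn call was lost whichever heart was left out, the Acacb call in 3 of these 6 fits, and the list's count was 0 with the Y-linked covariate, without cKO replicate 5 or without floxed replicate 1, and 1 without cKO replicate 4 or floxed replicate 2.

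**Figure D4:**
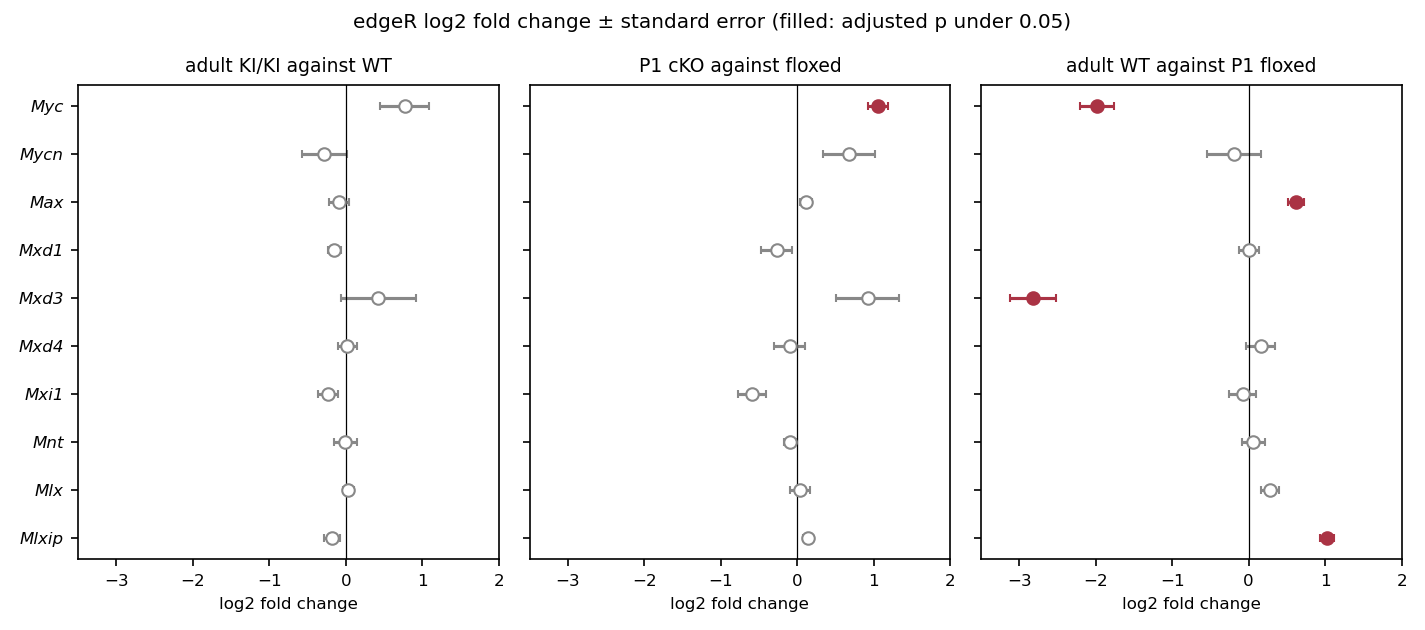
Log2 fold change of the 10 network genes from edgeR (horizontal axes, point and 1 SE) in adult KI/KI against WT, P1 cKO against floxed and adult WT against P1 floxed hearts, filled where the adjusted p is under 0.05. Myc is filled in both comparisons that involve P1 hearts, at 1.05 and -1.98, and no gene is filled in the KI/KI comparison.

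The comparison of adult KI/KI with WT hearts asks the same of the point mutation, which every cell carries. No network gene passed. Myc had the largest estimate and was the only one with an unadjusted p under 0.05, at 5, 2.50 and 3.76 CPM in WT hearts (82 to 156 counts) and 4.37, 8.30 and 6.45 CPM in KI/KI hearts (147 to 344 counts). The lowest KI/KI heart lay within the WT range and the other 2 above it. On the log2 scale the difference was 0.77 (SE 0.32), with an unadjusted p of 0.0455 and an adjusted p of 0.308 from edgeR, 0.201 from DESeq2 and 0.305 from limma-voom, and fits without 1 of the hearts gave 0.53 to 1.02. The study also measured Myc by RT-qPCR and reported it as significantly higher in KI/KI hearts, a measure not part of these counts.

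By edgeR 0 of 14592 genes passed in KI/KI hearts, 0%, and 16.0% had an unadjusted p under 0.05, beside 1 of the 10 network genes. DESeq2 called 3.56% of genes and none of the 10. The groups did not overlap for 22.4% of genes and for 1 of the 10, Mxd1, which was at 15.5, 14.8 and 14 CPM in WT and 14, 12.4 and 13.3 CPM in KI/KI hearts (log2 fold change -0.15, SE 0.08, adjusted p = 0.382). These shares for the network genes are near those of the table. The remaining 8 genes had log2 fold changes from -0.28 (Mycn, adjusted p = 0.643) to 0.42 (Mxd3, adjusted p = 0.680).

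The KI/KI heart with most Myc, replicate 5, also had the most proliferation marker RNA of the adult hearts, 120.3 CPM against 71.6 and 76.1 in the other KI/KI hearts and 64.8 to 92.7 in WT hearts. It had 0.989 CPM of Mxd3 against 0.327 to 0.609 in the other adult hearts. Without it the log2 fold change of Myc was 0.53 and that of Mxd3 -0.23. With the proliferation markers as a covariate the log2 fold change of Myc in KI/KI hearts was 0.44 (adjusted p = 0.595), below every fit that left out 1 heart. The part of cell composition in these values was not tested.

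Of 42 growth targets tested in KI/KI hearts, edgeR called 0 and 18 lay above 0, with a median log2 fold change of -0.02. DESeq2 called 3 higher, Rrp12, Ccnd2 and Shmt1, with edgeR log2 fold changes of 0.75, 0.86 and 1.16 and adjusted p of 0.191, 0.191 and 0.186. Shmt1, a one-carbon enzyme, was at 7.73, 9.09 and 11 CPM in WT and 20.3, 17.7 and 23.9 CPM in KI/KI hearts, which did not overlap. Fbxw7 was at 92.7, 93.2 and 98.4 CPM in WT and 94.5, 92.8 and 96.5 CPM in KI/KI hearts, a log2 fold change of 0.00 (SE 0.05). None of the other 6 lists had a call by edgeR or DESeq2.

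**Figure D5:**
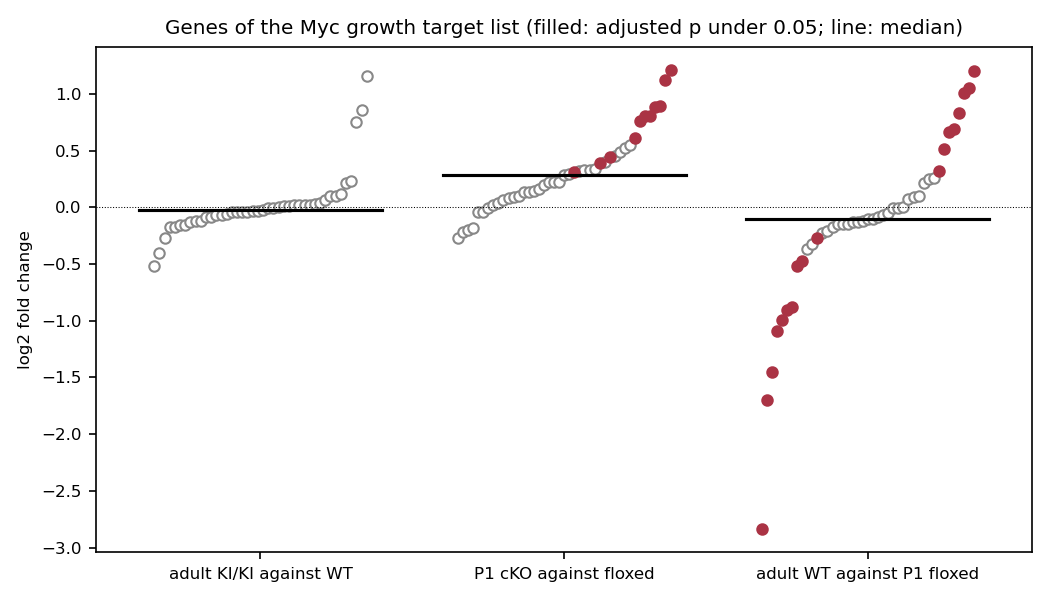
Log2 fold change of each tested gene of the 43 growth targets (points, sorted within each comparison) in the 3 comparisons, filled where the edgeR adjusted p is under 0.05, with a line at the median. The medians are -0.02 in KI/KI, 0.28 in cKO and -0.10 in adult against P1 hearts.

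Whether the 2 models differ was tested as the difference of their log2 fold changes in a fit of all 12 hearts. No network gene passed, against 2.51% of 15729 genes, and 1 of 10 had an unadjusted p under 0.05, against 20.2%. For Myc the difference, cKO effect minus KI/KI effect, was 0.28 (SE 0.35, adjusted p = 0.696), so the test does not separate the Myc effects of the models. The gene with the unadjusted p was Mlxip (difference 0.33, SE 0.13, unadjusted p = 0.0300, adjusted p = 0.194). Among the list genes Fbxw7 differed by -0.73 (SE 0.11, adjusted p = 0.0120) and passed in all 12 fits that left out 1 heart. Of the growth targets, 40 of 43 differences were above 0 with a median of 0.34, 2 were called higher, Srm (0.89, adjusted p = 0.0410) and Ldha, which makes lactate (0.78, adjusted p = 0.0432), and 1 lower, Shmt1 (-1.19, adjusted p = 0.0202). The Srm call held in 3 of 12 such fits, the Ldha call in 4 and the Shmt1 call in 8.

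The last comparison sets adult WT beside P1 floxed hearts. Myc and Mxd3 were lower in the adult and Max and Mlxip higher, so 4 of the 10 genes passed, 2 in each direction. Of 15183 genes 64.7% passed, 31.4% higher and 33.3% lower in the adult, beside 4 of the 10. A fold change above 2 was also passed by 27.2% of genes and by Myc, Mxd3 and Mlxip. The groups did not overlap for 71.1% of genes and for these 4 and Mlx. Scaling by total counts alone moved the median of all genes by -0.40 on the log2 scale, with 2791 genes higher and 8143 lower in place of 4775 and 5051, so the directions below are relative to the TMM scaling.

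Myc was 3.93-fold lower in the adult, with a log2 fold change of -1.98 (SE 0.22, adjusted p = 0.00014), and the highest WT heart, 5 CPM, lay far below the lowest floxed heart, 14.1 CPM. Mxd3 fell by 2.82 on the log2 scale (SE 0.30, adjusted p = 8.7e-05), from 2.71 to 3.63 CPM in floxed hearts to 0.327 to 0.609 CPM, or 12 to 19 counts, in WT hearts. The proliferation markers were at 325 to 462 CPM in floxed and 64.8 to 92.7 CPM in WT hearts, and all 6 passed as lower. Mycn did not pass, with a log2 fold change of -0.19 (SE 0.35, adjusted p = 0.651).

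Mlxip, on the plus strand of chromosome 5 from 123394798 to 123457932, was at 141, 123 and 113 CPM in WT and 58.9, 62.0 and 64.1 CPM in floxed hearts, and rose by a log2 fold change of 1.02 (SE 0.09, adjusted p = 3.1e-05). Its relative Mlxipl, which encodes ChREBP and is not one of the 10, rose from 8, 6.74 and 10.8 CPM to 39.2, 46.5 and 36.4 CPM (log2 fold change 2.25, SE 0.19, adjusted p = 2.9e-05). Max, on the minus strand of chromosome 12 from 76937269 to 76962201, was at 63.4, 49.6 and 60.4 CPM in WT hearts against 38.0, 39.2 and 35.2 in floxed hearts (log2 fold change 0.62, SE 0.10, adjusted p = 0.00092), but at 0.22 with an adjusted p of 0.123 under total-count scaling. Mlx had a log2 fold change of 0.28 (adjusted p = 0.0776). The 4 repressors Mxd1, Mxd4, Mxi1 and Mnt had log2 fold changes between -0.08 and 0.16 and none passed, and all but Mxi1 changed sign under total-count scaling.

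The lists moved in both directions, and their counts stand beside 31.4% of all genes higher and 33.3% lower in the adult. Of 10 corepressor genes 7 fell and 3 rose, with a median log2 fold change of -0.56 against -0.04 over all genes. The SIN3 complex subunit Sap30 fell by 1.37 on the log2 scale and the deacetylase Hdac2 fell by 0.77, whereas the SIN3-linked genes Sap18 (0.70) and Suds3 (0.62) rose. Of 14 MYC cofactors 3 rose, among them Zbtb17 (0.36) and Wdr5 (0.24), and 6 fell, among them the scaffold Trrap (-0.52). With total-count scaling the estimates of Zbtb17 and Wdr5 were -0.04 and -0.17. Of the fits that left out 1 heart, 4 of 6 kept the Zbtb17 call and 2 of 6 the Wdr5 call, and Wdr5 was also lost with upper-quartile scaling (adjusted p = 0.0615).

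Of 13 turnover genes 6 rose (46.2%) and 4 fell (30.8%) in the adult. Fbxw7 (log2 fold change 0.72) and the ubiquitin ligase Huwe1 (0.71) rose, and the mitotic kinase Aurka (-2.88) and the F-box protein Skp2 (-2.43) fell. The growth targets split, with 8 higher (18.6%) and 10 lower (23.3%) of 43 and a median of -0.10, both shares below those of all genes. Among them the cap-binding factor Eif4e (1.05) and Ifrd2 (0.83) rose, and Cdk4 (-1.09) and the nucleolar protein Npm1 (-0.91) fell. Of the 8 repressed genes, Ndrg2 (1.55) and Ndrg1 (1.10) were among 4 that rose, and the cell cycle inhibitors Cdkn1c (-1.56) and Cdkn1b (-0.61) fell.

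Of 11 tested MondoA and ChREBP targets 4 rose and 2 fell. The glycerol phosphate enzyme Gpd1 rose by a log2 fold change of 2.32. The stress-responsive factor Klf10 fell (-1.28, adjusted p = 0.00782) and so did the arrestin Arrdc4 (-0.94, adjusted p = 0.0452), whose groups overlapped and whose call was lost with limma-voom (adjusted p = 0.103), with RLE scaling and in 4 of the 6 fits that left out 1 heart. The number that fell was 1 in those 4 fits, 3 without floxed replicate 3 and 6 without WT replicate 3, where Fasn, Acaca, Acly and Elovl6, enzymes of fatty acid synthesis, were also lower. That WT heart stood apart, with 412 CPM of Fasn against 75.8 and 65.4 in the other WT hearts and 50.2 CPM of 4 adipocyte markers against 5.52 and 2.59. The part of fat tissue in these values was not tested.

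The genes whose pattern over the 12 hearts was closest to that of Myc, by the root mean square difference of centred log2 CPM over 15729 genes, were D630010B17Rik (0.239), Zdhhc2 (0.260) and Loxl2 (0.267), where Myc itself varied with an SD of 1.26. D630010B17Rik had 1 to 6 counts in each adult heart and 10 to 35 in each P1 heart, so it was near the limit of detection. Loxl2, a lysyl oxidase of the extracellular matrix, was at 31.0 to 44.1 CPM in WT, 38.6 to 94.8 in KI/KI, 135 to 200.3 in floxed and 289 to 419.8 CPM in cKO hearts. The palmitoyltransferase gene Zdhhc2 was at 3.78 to 5.84, 8.03 to 13.9, 17.1 to 23.7 and 50.3 to 59.4 CPM in the same order, with no overlap between any of the 4 groups. Closest to Mycn were Prelid2 (0.242), Alkbh2 (0.258) and Nrarp (0.287), with an SD of 0.60 for Mycn. The hearts share age and genotype groups, and such likeness is a description.

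Some network genes overlap others on the opposite strand, and the strand setting of the counting is not given in the sources used here. Exons of Mxd3 share 105 bases with those of Prelid1, Mlx 385 with Psmc3ip, Mxd4 514 with Gm42846, Mxi1 194 with Gm10197 and Mlxip 267 with Gm15747. Without strand, reads from these stretches could have come from either gene. Myc, Mycn, Max, Mxd1 and Mnt had no such overlap in the annotation.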

How the data were processed

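Whole-heart polyA RNA of 12 mice was analysed in 4 groups of 3, grouped by their labels. Reads had been trimmed (Trim Galore), mapped to mm10 (STAR 2.7.2b) and assigned to genes (HTSeq), and the raw whole-number counts were deposited by the authors. Library totals were 37063669 to 44789753, and no pair of replicates held identical counts. The labels do not name litters, so hearts from a shared litter could not be accounted for. Each p-value sets a group difference against the spread between mice within the groups.

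Each comparison used its own 6 libraries in R 4.3.3 with edgeR 4.0.16, TMM scaling, filterByExpr, the robust quasi-likelihood test and Benjamini-Hochberg adjustment over all tested genes, with an adjusted p under 0.05 as the threshold. The difference between models used all 12. Tests are two-sided. DESeq2 1.42.0 and limma-voom 3.58.1, other scalings, filters, covariates and each library left out were alternatives. A summary of pathway lists under these alternatives was added after the data were seen. Lengths are unions of GENCODE exons on GRCm38. The script was tested on simulated data.

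The 10 genes and the lists were chosen with earlier results of these data known. Named list genes are the 2 with the smallest p in each direction per list and comparison among those past the threshold, of which some are not reported here. Others are named where a count was 5 or less, or to describe libraries. Replicate numbers were not used to pair the hearts in the main fits.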

Additional observations from a re-analysis of the deposited data

Results flagged for a closer look

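The effect of the cKO and that of KI/KI, each against its own controls, differed by a test of the interaction for 4 genes of the lists, all from edgeR over 12 hearts with Benjamini-Hochberg adjustment. For Fbxw7 the difference, cKO effect minus KI/KI effect, was -0.73 on the log2 scale (standard error 0.11, adjusted p = 0.0120), with every cKO heart below every floxed heart. For Srm it was 0.89 (standard error 0.19, adjusted p = 0.0410), with every cKO heart above every floxed heart and KI/KI and WT hearts overlapping. For Ldha it was 0.78 (standard error 0.17, adjusted p = 0.0432), with 845, 979.7 and 923 CPM in cKO against 517, 587 and 691 CPM in floxed hearts and 712, 623 and 592 CPM in KI/KI against 750.2, 767 and 647 CPM in WT hearts. For Shmt1 it was -1.19 (standard error 0.20, adjusted p = 0.0202), with every KI/KI heart above every WT heart and cKO and floxed hearts overlapping. The models also differ in age, in the cells that carry the change, in the kind of allele and in the Cre transgene, and these cannot be told apart. None of the 10 network genes differed by this test.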

How the results depend on the processing

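Whole hearts in groups of 3 limit every comparison, and genes such as Mxd3 in adult hearts rest on 12 to 41 counts. Of the results for single genes under an alternative, 1052 kept their direction and side of the threshold, 4 newly passed, 69 no longer passed and 47 changed sign. The causes were not tested. Values of named genes below are log2 fold changes. Not all sign changes concerned estimates near 0. In the main fits Mycn was 0.67, Mxd3 0.92 and Mxd1 -0.27 in cKO against floxed hearts. Mxd3 was 0.42 in KI/KI against WT hearts and 0.51 for the difference between the models. Zbtb17 was 0.36, Mlx 0.28 and Wdr5 0.24 in adult WT against P1 floxed hearts.

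For KI/KI against WT, edgeR called 0 genes, DESeq2 518, the fit of all 12 libraries 27 and the fit without a low-count filter 2. Sign changed for Mnt with limma-voom (0.01), total counts (0.07) and the proliferation covariate (0.13), and with that covariate for Mxd3 (-0.22) and Mxd4 (-0.07). With each library left out, 0 to 52 genes were called, and Max ran from -0.19 to 0.02, Mxd3 from -0.23 to 0.70, Mxd4 from -0.06 to 0.16, Mnt from -0.15 to 0.17 and Mlx from -0.02 to 0.07. Growth targets called higher numbered 3 with DESeq2 and 1 with all 12 libraries.

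For cKO against floxed, 2 network genes passed with DESeq2 and with all 12 libraries, in both cases Myc and Mxi1. Over all genes, 3871 passed with all 12 libraries, 1557 with the Y-linked covariate and 686 with a fold change above 2, beside 2520. Leaving out libraries gave 0 to 2 network genes, 129 to 3385 genes, 0 to 14 higher growth targets and 0 to 2 lower MLX targets, with 0 network genes and 129 genes without floxed replicate 1, 482 without cKO replicate 5, 623 without floxed replicate 2 and 1665 without floxed replicate 3. With upper-quartile scaling 1172 genes were higher and 1418 lower, and with total counts 1083 and 1393, beside 1401 and 1119. Growth targets higher numbered 18 with DESeq2, 19 with all 12 libraries, 5 with the proliferation covariate and 6 with the Y-linked covariate, and MLX targets lower 0 with the last. The proliferation covariate turned Mycn (-0.14), Mxd1 (0.22), Mxd3 (-0.35) and Mxd4 (0.27), and Mlx turned with total counts (-0.03), upper-quartile scaling (-0.01) and the Y-linked covariate (0.00). Left-out libraries took Mxd4 from -0.29 to 0.00 and Mlx from -0.08 to 0.10.

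For adult WT against P1 floxed, a fold change above 2 left 4123 genes. Total counts turned Mxd1 (-0.40, adjusted p = 0.0370), Mxd4 (-0.26), Mnt (-0.34), Mlx (-0.12), Zbtb17 (-0.04) and Wdr5 (-0.17). Upper-quartile scaling turned Mxd1 (-0.07) and Mnt (-0.02) and gave 4347 genes higher and 5586 lower, and a minimum of 10 counts turned Mxd1 (-0.02). Left-out libraries took Mycn from -0.44 to 0.17, Mxd1 from -0.11 to 0.10, Mxd4 from -0.02 to 0.26, Mxi1 from -0.25 to 0.08 and Mnt from -0.11 to 0.21. MLX targets lower numbered 1 with RLE factors, no filter, limma-voom or the replicate block, 4 with total counts and 1 to 6 with libraries left out.

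For the difference between the models DESeq2 called 1310 genes, with 10 growth targets higher and 1 MLX target lower, and leaving out libraries gave 50 to 935 genes, 0 to 10 growth targets and 0 to 2 MLX targets. Left-out libraries took Mxd1 from -0.29 to 0.02, Mxd3 from -0.08 to 1.16, Mxd4 from -0.29 to 0.00, Mnt from -0.25 to 0.06 and Mlx from -0.10 to 0.08.

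Replicate numbers were checked as a possible pairing. Deviations of same-numbered WT and floxed hearts correlated at -0.24, -0.29 and -0.54, and those of KI/KI and cKO hearts at 0.21, 0.20 and 0.09. Differently numbered pairs ran from -0.30 to 0.44 and from -0.32 to 0.17. The deviations are taken from means of 3 hearts, so these values cannot decide whether same-numbered hearts share more than a number. With a replicate block, 4 network genes and 8966 genes passed in the age comparison, and 0 network genes, 0 genes and 0 growth targets for the difference between the models, where Fbxw7 had an adjusted p of 0.0697.

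The ratio of Myc plus Mycn to the summed repressors was 0.0470 in WT, 0.0589 in KI/KI, 0.106 in floxed and 0.234 in cKO hearts when coding lengths were used, and 0.144 in WT and 0.694 in cKO hearts with the longest transcript, in the same order of groups.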
